A study of Mus musculus with 10 samples.

Results

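Heat shock proteins and chaperonins were measured in the cells of the inner ear of old mice. The members were all genes whose symbol belongs to the families of HSP90, HSP70, HSP110, the small heat shock proteins, HSP60 and HSP10, the cytosolic chaperonin CCT and the J-domain proteins DNAJA, DNAJB and DNAJC, with symbols of pseudogenes left out. This gave 81 of the 32285 genes in the count tables. They comprised 3 genes of HSP90, 13 of HSP70, 1 of HSP110, 7 small heat shock proteins, 2 of HSP60 and HSP10, 10 of CCT, 4 of DNAJA, 13 of DNAJB and 28 of DNAJC.

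Single-cell RNA sequencing libraries were made from the cochlea, the organ of hearing, and from the vestibule, the organs of balance, of 22-month-old CBA/J mice. These were untreated wild-type mice of both sexes, with 7 to 8 pooled for each library, so that the spread between libraries is that between pools of animals. CBA/J is an inbred strain that keeps its hearing until late in life. Young mice are not analysed here, and no change with age was computed. Each organ had 5 libraries, but replicate 2 repeated replicate 1. The pair shared 1313 of 1313 cell barcodes in the cochlea and 1633 of 1641 in the vestibule and differed by less than the sampling noise, and therefore it was counted as 1 sample, so that n = 4 (replicates 1, 3, 4 and 5) in each organ.

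Heat shock proteins are chaperones, which bind proteins that are unfolded or not yet folded. HSP70 proteins take up client proteins that J-domain proteins deliver, release them when a nucleotide exchange factor such as an HSP110 protein opens the cycle, and pass some of them on to HSP90, while CCT folds actin and tubulin in a closed chamber and HSP60 with HSP10 does the same in mitochondria. Hair cells (HCs) are the sensory cells of both organs and are not replaced in the adult cochlea, so that their proteins are kept folded by the same cells for life.

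The kept cells numbered 7272 in the cochlea and 10424 in the vestibule, and libraries held between 2738036 and 26974948 unique molecular identifiers (UMIs). Classes of cells were named from marker genes after clustering without the members, and UMIs were summed per library and class. Clusters that took no name held 2455 cochlear and 2183 vestibular cells; they enter no class mean and are described on their own. HCs were 153 in the cochlea, with 26, 81, 14 and 32 in replicates 1, 3, 4 and 5, and 1767 in the vestibule, with 197, 792, 471 and 307. The summed level of 6 HC markers was 3809 to 4262 CPM (the gene's share of the UMIs, scaled to counts per 1000000) in cochlear HCs and 2985 to 3548 in vestibular HCs, and no marker was at 0. Levels are given in CPM. Each molecule is counted once at its 3′ end, so levels of different genes can be set side by side without a correction for length. Sequence shared with other genes was not corrected for. Of the 90-base stretches in the last 500 bases of its transcripts, 60.58% occurred in other genes for Hspa8. The share was 36.01% for Hspe1, 35.51% for Dnaja1, 18.73% for Hsp90aa1, 18.58% for Hspd1 and 14.06% for Dnajb6, so that their reads could be split. Since a class is a group of clusters of these same cells, differences between classes of an organ and between HC types are described with their fold and standard error (SE), and their counts of calls are given without p-values.

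Of the 81 members, 66 passed the filter on low counts in at least 1 organ, 63 in the vestibule and 59 in the cochlea. The other 15 passed in neither, so counts of members that were called say nothing of them. Cct8l1, Dnajc5g and Dnajb8 had no UMI in any class, and Dnajb7 and Dnajc22 had 4 and 6 UMIs in all.

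Among the named classes, the members took their highest mean share of UMIs in the sensory cells, with the types of HC pooled. In cochlear HCs they made up 1.23%, 1.56%, 1.37% and 1.33% of all UMIs in replicates 1, 3, 4 and 5, and in vestibular HCs 1.48%, 1.49%, 1.47% and 1.41%. Cochlear neurons followed with 1.16%, 1.20%, 1.34% and 1.15%. In supporting cells, which surround the HCs, the share was 0.657% to 0.733% in the cochlea and 0.891% to 0.937% in the vestibule, so that every HC library lay above every supporting cell library. Of the vestibular classes, granulocytes and erythroid cells were lowest, at 0.184% to 0.265% and 0.192% to 0.323%, and the 1 cochlear library with enough granulocytes was at 0.184%. Within the vestibule, type II HCs (1.71%, 1.63%, 1.64% and 1.51%) lay above type I HCs (1.42%, 1.46%, 1.43% and 1.39%) in each library. Within the cochlea, libraries with enough inner hair cells had 1.66% and 1.57% (replicates 3 and 5). Those with enough outer hair cells had 1.24%, 1.10% and 0.885% (replicates 1, 3 and 5). In replicates 3 and 5 outer hair cells lay below the neurons, and in replicate 5 also below every library of vestibular supporting cells.

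**Figure D1:**
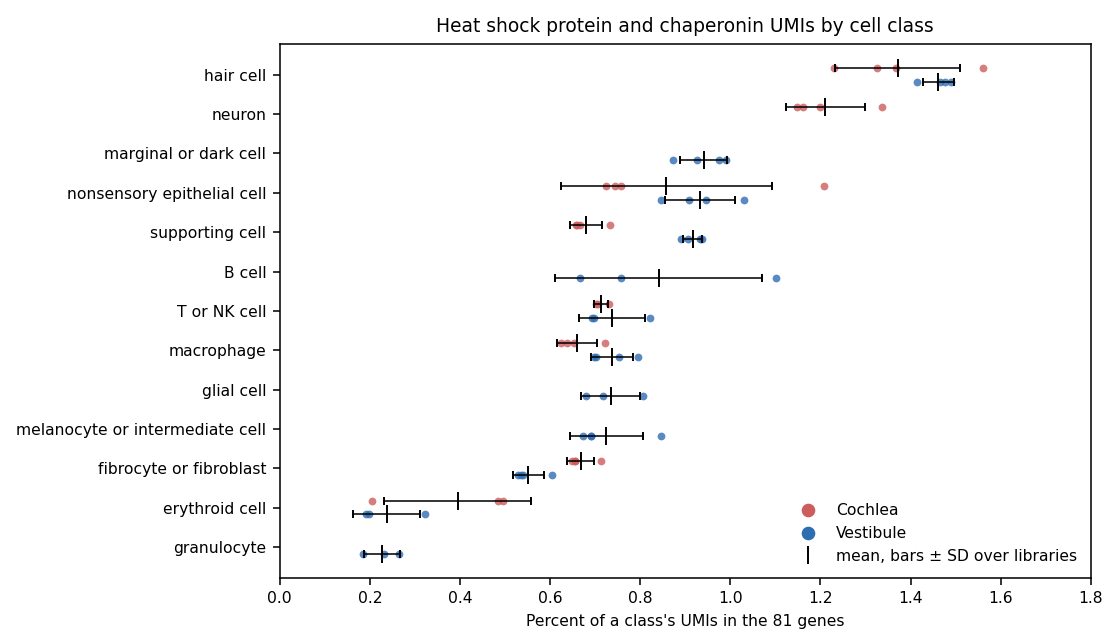
Share of a class's UMIs that fell in the 81 genes (x axis, percent) for each cell class (y axis), 1 point per library, red for the cochlea and blue for the vestibule, with the mean and SD over libraries in black. HCs lie at 1.23% to 1.56%, and granulocytes and erythroid cells of the vestibule at 0.184% to 0.323%.

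An unnamed vestibular cluster of 107 cells, led by genes of motile cilia such as Ccdc153, Sntn and Tmem212, had 1.93% of its UMIs in the members, more than any library of HCs. Of its cells 103 came from replicate 3, so that it has no replicate check. Hsp90aa1 stood at 4829 CPM in it, Hspa8 at 1884, Hsph1 at 606 and Dnaja1 at 606, each above the highest mean of a named vestibular class. Dnajb13 stood at 125 CPM and Dnajc12 at 42, within the range of the HC libraries, and Dnaja4 at 324, below that range, while Dnajc5b had 3 UMIs. A second unnamed cluster of 275 vestibular cells had 1.32% of its UMIs in the members, and it held markers of HCs (2031 CPM summed) as well as of supporting cells (4137 CPM). In it Dnajc5b stood at 264 CPM and Dnajb13 at 62.3. The other 4 unnamed vestibular clusters had 0.536% to 0.869% of their UMIs in the members, and the 8 cochlear ones 0.466% to 0.735%.

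By named class, HCs held the highest mean level of 17 members in each organ. In the cochlea neurons held 22, nonsensory epithelial cells 8, and supporting cells 4. In the vestibule marginal or dark cells held 11, B cells 9, and supporting cells 7. The same count was not made over all genes, so no preference of the members for a class can be read from it. Some leads were small, as for Cct2, with 163 CPM in cochlear HCs and 160 in neurons. Only classes with at least 3 libraries entered, and no vestibular class was named neurons. Counted against the mean of the other classes at an adjusted p under 0.05 (edgeR) and at least 2-fold, 18 of the 63 members tested in vestibular HCs were called, 16 of them higher, where 34.5% of all genes tested were called and 22.9% were higher. In cochlear HCs 13 of 59 were called, 11 of them higher, where 32.2% of all genes were called and 16.2% were higher. The share of members called was below that of all genes in both, while their median log2 fold was 0.37 in vestibular HCs, against 0.09 over all genes, and 0.34 in cochlear HCs, against -0.14. Over all contrasts of a class with the others, 114 of 756 tests of members were called in the vestibule (21.4% of those of all genes) and 70 of 472 in the cochlea (25%).

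**Figure D2:**
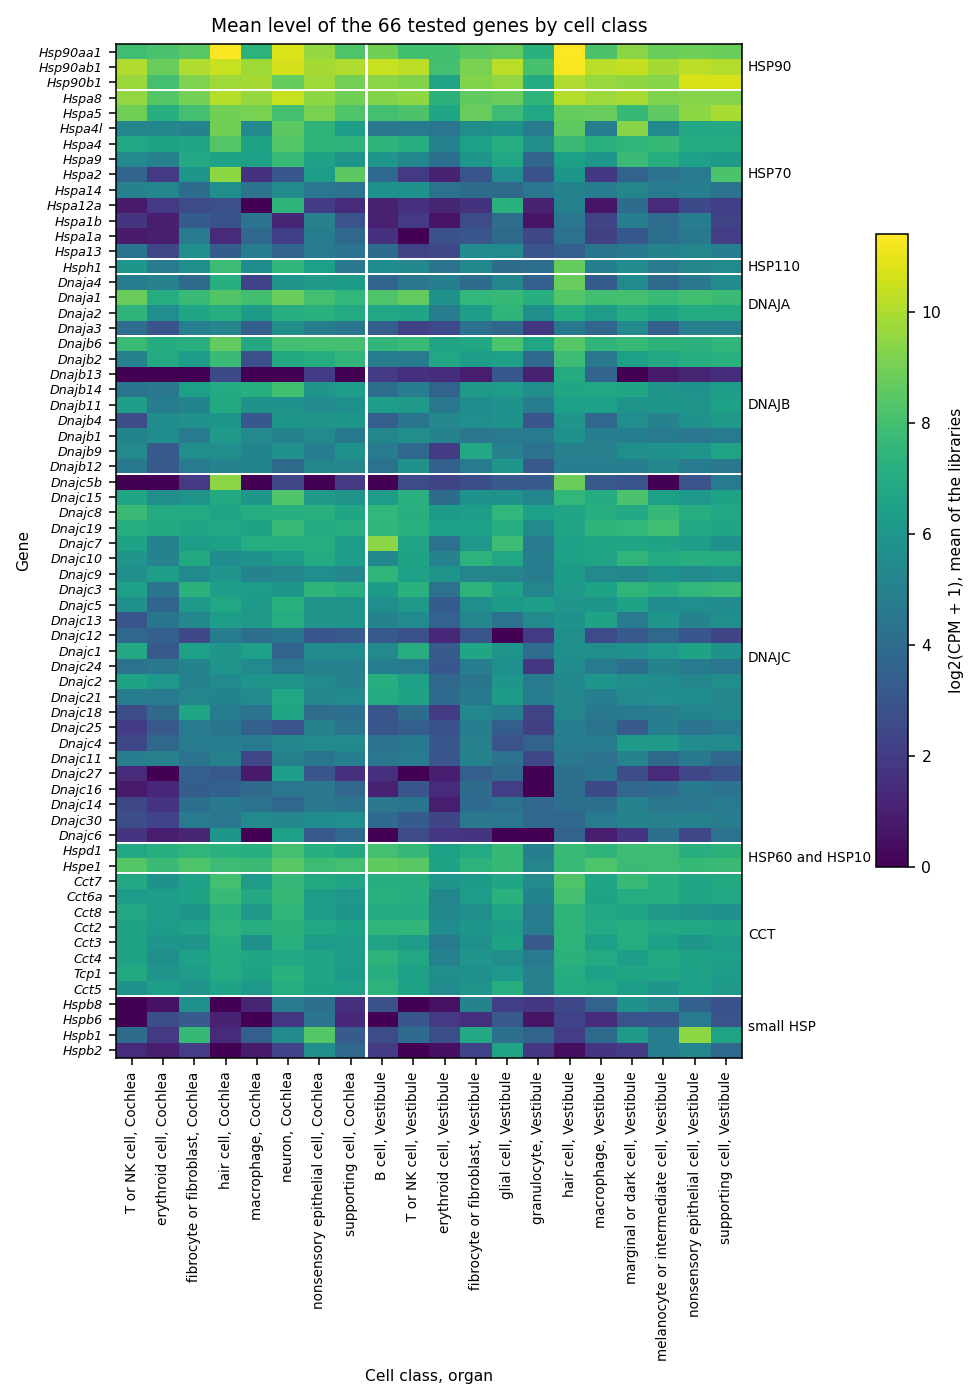
Mean level of the 66 tested genes (rows, grouped by family) in each class and organ (columns), as log2(CPM + 1) averaged over the libraries. The brightest columns are the HCs and the cochlear neurons. Among the classes shown, Dnajc5b is bright in the HCs of both organs and Dnajb13 in vestibular HCs.

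The cytosolic HSP90 genes carried the largest part of these UMIs. Hsp90aa1, the stress-inducible HSP90α (chromosome 12, 110690605 to 110702728 in GENCODE M21 on GRCm38), stood at 2825, 2984, 2685 and 2275 CPM in vestibular HCs and at 1980, 3566, 2419 and 2440 in cochlear HCs. Cochlear neurons had 1316 to 2402 CPM. Supporting cells had 211 to 378 in the cochlea and 337 to 567 in the vestibule, and no library of theirs reached any library of HCs. Against the mean of the other classes Hsp90aa1 was 2.56 ± 0.16 (SE) higher on the log2 scale in vestibular HCs and 2.43 ± 0.29 higher in cochlear HCs. Hsp90ab1, the constitutive HSP90β, had 2462 ± 208 CPM (SD, n = 4) in vestibular HCs, 1403 ± 220 in cochlear HCs and 1604 ± 359 in neurons, and its lowest means were 255 in vestibular erythroid cells and 268 in vestibular granulocytes.

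Among the HSP70 proteins, Hspa8, the constitutive HSC70, was the most abundant in HCs, with 1122 ± 211 CPM in the vestibule and 1111 ± 165 in the cochlea, next to 1405 ± 163 in neurons. Hspa4l, a relative of HSP110 that acts as a nucleotide exchange factor, had 377 ± 56.4 CPM in vestibular HCs and 504 ± 143 in cochlear HCs, and its highest mean was in marginal or dark cells, which secrete the potassium-rich endolymph (612, 811, 558 and 627 CPM). The stress-inducible genes Hspa1a and Hspa1b, neighbours of near-identical coding sequence whose transcript ends share no 90-base stretch, were scarce: Hspa1a had 2.49, 43.0, 11.2 and 16.9 CPM in vestibular HCs, and 3 UMIs in all cochlear HCs. The level of Hspa1a varied over an order of magnitude between libraries of the same class, and its highest value in vestibular HCs lay in replicate 3.

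Hsph1, the HSP110 protein (chromosome 5, 149614287 to 149636376), was 3.46 ± 0.16 higher on the log2 scale in vestibular HCs than in the mean of the other classes and 1.84 ± 0.34 higher in cochlear HCs. Its levels were 352, 435, 396 and 458 CPM in vestibular HCs, where no other named class of the vestibule had a mean above 45.2 CPM, and 241, 189, 238 and 235 in cochlear HCs. Cochlear neurons had a mean of 181 CPM. The promoter of Hsph1 holds a heat shock element, the inverted repeat of GAA bound by HSF1, which is shown because heat shock genes are known for it. The RefSeq promoter table (250 bases before to 50 after each start, GRCm38.p6) held 85 promoters for 66 members and 32851 in all. The pair GAANNTTC, searched on both strands, was in 21.18% of the member promoters and in 7.86% of all, the pair TTCNNGAA in 11.76% and 8.52%, and the triple made of both pairs sharing their TTC in 7.059% and 0.6027%. The 6 member promoters with the triple were overlapping windows of Dnajb6, overlapping windows of Hsph1, and windows of Hspd1 and Hspe1 that overlap each other. The same site can thus be counted more than once in these shares. A match is a description of these letters, and none of these genes was tested for binding. The whole Hsph1 promoter held 1 pair GAANNTTC, 2 pairs TTCNNGAA and 1 triple. Only 1 of the pairs lies wholly before the more upstream of its RefSeq starts, and the triple is not shown. In the window below, on the minus strand and 5′ to 3′, the capitals mark that pair, TTCNNGAA, whose first base lies at position -33 from this start. The window lies inside a GENCODE transcript.
Hsph1 chr5:149636351-149636380: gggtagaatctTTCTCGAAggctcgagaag

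Dnajc5b, the second cysteine string protein gene and a relative of the synaptic vesicle chaperone Dnajc5 (chromosome 3, 19508595 to 19610862), was at 342, 504, 417 and 587 CPM in vestibular HCs. In the other named vestibular classes its mean was at most 23.9 CPM, in supporting cells, and in the other named cochlear classes at most 4.4 CPM, while an unnamed cochlear cluster of 261 cells, 247 of them from replicate 3, had 117 CPM. A UMI of Dnajc5b was found in 69.9% of vestibular HCs, against 1.92% of macrophages, with a median of 4060 and 2947.5 UMIs per cell, and in 34.0% and 1.10% after each cell was thinned to 1000 UMIs. Dnajc5 itself had 61.2 ± 8.58 CPM in vestibular HCs. Of the 90-base stretches at the end of its transcripts, 9.427% occurred in another gene for Dnajc5b.

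In the cochlea, Dnajc5b separated the HC types. The 80 inner hair cells (IHCs), which pass the signal to the nerve, had 3, 466, 80 and 117 UMIs of Dnajc5b in replicates 1, 3, 4 and 5, over 2, 53, 6 and 19 cells. The 73 outer hair cells (OHCs), the electromotile amplifiers, had 0 in all 4 libraries, over 24, 28, 8 and 13 cells. Pooled, IHCs stood at 1219 CPM (95% Poisson interval 1128 to 1315), and OHCs at 0 of 225381 UMIs (95% Poisson interval 0 to 16.4 CPM). The level in IHCs was 91.6-fold that of 3 UMIs in OHCs, which would be 13.3 CPM. The intervals cover counting error only, since pooled cells are not replicates. IHCs were 2 of the 26 kept cochlear HCs in replicate 1 and 53 of the 81 in replicate 3. The level of Dnajc5b over all cochlear HCs moved with this share, at 36.2, 1022, 762 and 915 CPM. This share also depends on which cells were set aside for markers of another class. Before that step the IHC cluster held 146 cells and the OHC cluster 76. Cells set aside numbered 19, 29, 9 and 12 in replicates 1, 3, 4 and 5. The part of this step in the low level of replicate 1 was not tested. Hsp90aa1 was also higher in IHCs than in OHCs in replicates 3, 4 and 5 (3895, 2668 and 3142 against 1999, 1714 and 1180 CPM) and lower in replicate 1, with 13 UMIs of the IHCs (1348 against 2064).

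**Figure D3:**
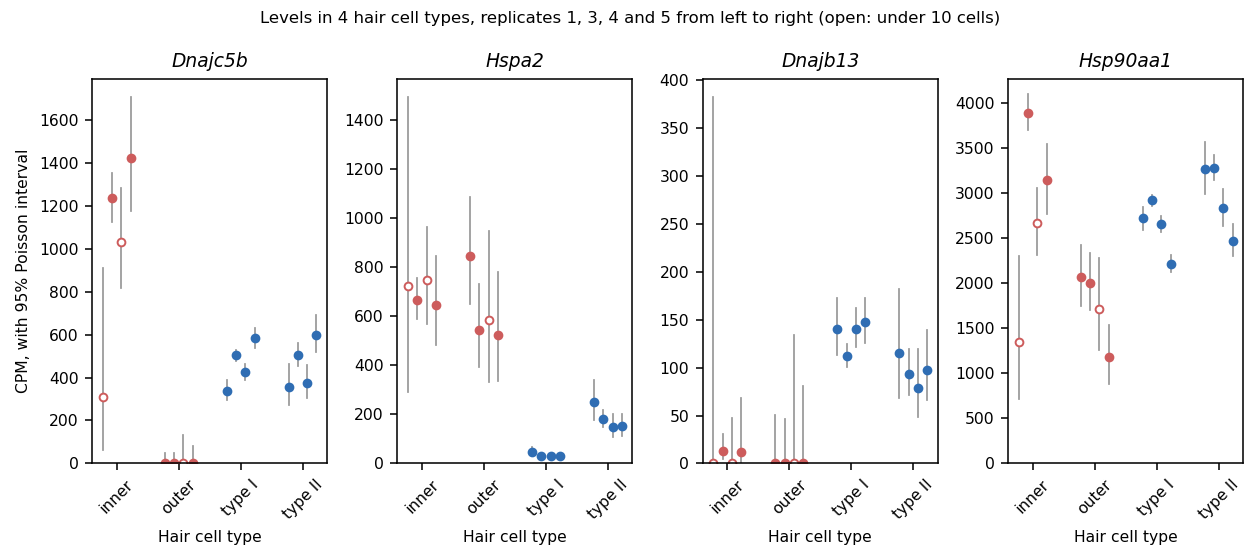
Levels of 4 genes (y axes, CPM) in inner, outer, type I and type II HCs (x axes), 1 point for each of replicates 1, 3, 4 and 5 from left to right with its 95% Poisson interval, red for the cochlea and blue for the vestibule, open where a library had fewer than 10 cells. Dnajc5b has 0 UMIs in the OHCs of every library, and Dnajb13 is near 0 in both cochlear types.

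Other J-domain proteins were high in HCs as well. Dnaja4, a type I cochaperone of HSP70, had 469, 372, 460 and 409 CPM in vestibular HCs, and no other named class of the vestibule had a mean above 44.2. Dnajc12, which is needed for the aromatic amino acid hydroxylases, had 54.8, 59.0, 39.3 and 46.9 CPM there and a mean of at most 13.5 in the other named classes of the vestibule. Dnajb13, known from the radial spokes of sperm tails and cilia (chromosome 7, 100501716 to 100514960), had 136, 109, 130 and 136 CPM in vestibular HCs and a mean of at most 12.2 in the other named classes, while the unnamed cluster with cilia genes stood at 125. Dnajb13 overlaps Ucp2 on the opposite strand, and the 10x libraries keep the strand. Dnajb2 and Dnajb6, which hold aggregation-prone proteins in solution, were at 232 ± 38.7 and 336 ± 21.5 CPM in vestibular HCs and at 218 ± 79.5 and 407 ± 52.9 in cochlear HCs. Dnajb1, the usual partner of inducible HSP70, had 51.6 ± 17.5 and 68.9 ± 22.2, Dnajb14 had 108 ± 4.75 and 122 ± 70.8, Dnajb12 had 29.1 ± 6.51 and 32.7 ± 27.9, and Dnajc24 had 44.2 ± 11.4 and 58.2 ± 22.6. Dnajb5 was nearly absent, with 5 UMIs in vestibular and 1 in cochlear HCs.

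Cochlear and vestibular HCs of the old mice were compared next. Of 58 members tested with edgeR's quasi-likelihood test, 9 differed at a Benjamini-Hochberg adjusted p under 0.05 (30.9% of all 7672 genes did), 4 of them higher and 5 lower in the cochlea (12.6% and 18.3% of all genes). The median log2 fold of the members was 0.03, against -0.06 over all genes. Most members thus passed in neither direction. The organs also differ in the make-up of their HCs, in depth per HC, and in the number of HCs, and the part of these in a difference was not tested. In bulk sums of this kind, fewer cells of a type and less RNA per cell cannot be told apart.

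Hspa2, an HSP70 best known from the testis (chromosome 12, 76404176 to 76406938), differed most. It had 833, 647, 705 and 602 CPM in cochlear HCs and 87.2, 57.1, 50.5 and 56.5 in vestibular HCs, so that the groups were far apart. The log2 fold was 3.52 ± 0.22 (adjusted p = 7.63e-13), and it lay between 3.21 and 3.60 in the 13 alternatives. Pooled, IHCs had 677 CPM and OHCs 643 CPM, with Poisson intervals of 610 to 750 and 543 to 757 that overlap. Supporting cells held Hspa2 in both organs, with 512, 341, 315 and 301 CPM in the cochlea and 280, 316, 284 and 275 in the vestibule, where they had the highest mean of all classes.

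Dnajc6, auxilin, which strips clathrin from vesicles with HSC70, was also higher in cochlear HCs. Its levels were 96.6, 63.6, 28.6 and 70.4 CPM against 13.7, 9.93, 10.6 and 11 in vestibular HCs, without overlap (log2 fold 2.59 ± 0.32, adjusted p = 2.63e-07). Cochlear neurons had 135, 91.0, 57.7 and 58.2 CPM of Dnajc6. Dnajc5 had 121, 94.3, 152 and 70.4 CPM against 73.5, 60.7, 54.8 and 55.7 (0.82 ± 0.24, adjusted p = 0.0094), with 1 cochlear library below the highest vestibular one. Hspa4, an exchange factor, had 254, 353, 400 and 305 CPM against 172, 212, 232 and 249 (0.65 ± 0.21, adjusted p = 0.016). Hspa4 lost its call in 6 of 13 alternatives and Dnajc5 in 4 of 12, where a limit of 10% on mitochondrial UMIs turned its sign.

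Lower in cochlear HCs were Dnajb13, Hspa12a, Dnaja4, Hsph1 and Hsp90ab1. Dnajb13 had 0, 11, 0 and 7.82 CPM in cochlear HCs against 136, 109, 130 and 136 (log2 fold -3.96 ± 0.42, adjusted p = 1.24e-08). These were 6 UMIs in all cochlear HCs, and the pooled ratio of vestibular to cochlear HCs was 15.6 with a 95% counting interval of 7.14 to 42.7. Hspa12a, a distant HSP70 relative (chromosome 19, 58795750 to 58943654), had 12.1, 2.19, 9.52 and 0 CPM, which are 3 UMIs, against 36.1, 29.0, 36.1 and 24.2, with a pooled ratio of 7.82 (2.64 to 38.2). Its highest levels were outside HCs, with 287, 118, 132 and 137 CPM in cochlear neurons and 95.7, 232 and 139 in the 3 vestibular libraries with enough glial cells.

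Dnaja4 had 157, 140, 124 and 133 CPM in cochlear HCs against 469, 372, 460 and 409 in vestibular HCs (-1.58 ± 0.22, adjusted p = 1.32e-06). Hsph1 had 241, 189, 238 and 235 CPM against 352, 435, 396 and 458 (-0.87 ± 0.21, adjusted p = 0.00181). Neither overlapped between the organs, and Hsph1 lost its call in 1 alternative, with the members kept among the variable genes (adjusted p = 0.0955). Hsp90ab1 had 1413, 1608, 1495 and 1095 CPM against 2549, 2413, 2688 and 2200 (-0.78 ± 0.21, adjusted p = 0.00569), again without overlap. Without replicate 5 its adjusted p was 0.0566, the highest of its 13 alternatives. Hsp90aa1, by contrast, had a log2 fold of 0.00 at 2 decimals with an SE of 0.23 (adjusted p = 0.995), and Hspa8 one of 0.03 ± 0.21 (adjusted p = 0.945). Dnajc5b differed by 0.66 ± 0.65 (adjusted p = 0.522), with the cochlear libraries spread from 36.2 to 1022 CPM.

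**Figure D4:**
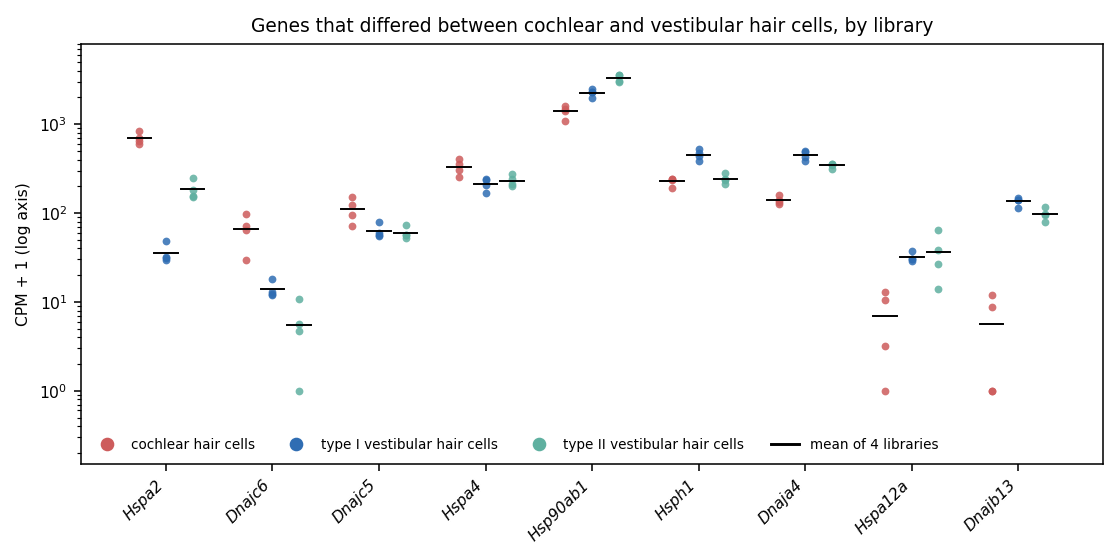
The 9 members that differed between the organs (x axis) in cochlear HCs (red) and in type I (blue) and type II (green) vestibular HCs, 1 point per library with the mean as a black line, on a log axis of CPM + 1. Hspa2 and Dnajc6 are highest in the cochlea, and Hspa12a and Dnajb13 are lowest there. Type II HCs lie between type I and cochlear HCs for Hspa2, at 149 to 249 CPM.

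Type I HCs, which sit in a calyx nerve ending, and type II HCs, which have bouton endings, were compared within the vestibule (1488 and 279 cells). Of 58 members tested, 5 were called, 3 higher and 2 lower in type I (18.3% of all 7961 genes, 8.69% higher and 9.56% lower). Both types of a number come from 1 library, and with the library as a block 11 members were called (25.9% of all genes), the first 5 among them. Hspa2 had 47.9, 29.9, 30.7 and 28.4 CPM in type I and 249, 180, 149 and 153 in type II (log2 fold -2.36 ± 0.20). Hsph1 went the other way, with 379, 469, 433 and 523 CPM in type I and 243, 278, 209 and 234 in type II (0.97 ± 0.16). These were without overlap and were called in every alternative.

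Hsp90ab1 had 2299, 2275, 2511 and 1978 CPM in type I and 3582, 3036, 3573 and 2957 in type II (-0.45 ± 0.14). Dnaja4 had 496, 385, 482 and 428 against 358, 315, 354 and 344 (0.46 ± 0.14), and Dnajb13 had 141, 112, 141 and 148 against 115, 93.3, 78.3 and 97.4 (0.58 ± 0.18). These 3 kept their direction but lost their call without replicate 3, 4 or 5. The 6 members added by the block were higher in type II (Cct3, Hspa4l, Dnajb2 and Hspa8) or in type I (Dnajc19 and Dnajc15), and the largest of these was Dnajc19, a subunit of the mitochondrial import motor, at 0.53. The mean level of Dnajc5b in type I and type II was 462 ± 105 and 460 ± 114 CPM. The summed markers of supporting cells, which also express Hspa2, were 676 to 880 CPM in type II and 32.5 to 66.6 in type I, against 4667 to 6739 in vestibular supporting cells. Sox2, a marker of both type II HCs and supporting cells, is on that list. The part of supporting cell RNA in the level of Hspa2 in type II HCs was not tested.

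Small heat shock proteins, which hold unfolding proteins without using ATP, showed the opposite pattern. Hspb1, HSP25 of the mouse (chromosome 5, 135887919 to 135889563), had 3 UMIs in cochlear HCs and 33 in vestibular HCs, or a mean of 3.16 CPM there. Nonsensory epithelial cells, which line the fluid spaces beside the sensory patches, had 366, 369, 209 and 412 CPM in the cochlea and 1444, 428, 578 and 338 in the vestibule, with replicate 1 far above the others. Fibrocytes or fibroblasts had 244, 210, 185 and 151 CPM in the cochlea and 163, 97.0, 85.9 and 120 in the vestibule. Against the mean of the other classes of the organ, the log2 fold of Hspb1 in nonsensory epithelial cells was 4.05 ± 0.26 in the cochlea and 4.70 ± 0.31 in the vestibule. In HCs it was -3.31 ± 0.72 and -3.28 ± 0.62. Of its transcript end, 34.92% of the 90-base stretches occur in the pseudogene Hsp25-ps1, so that reads could be split between them.

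The promoter of Hspb1 (chr5:135887669-135887918, plus strand, the 250 bases before the start, GRCm38.p6) is shown because this gene had the widest range among the small heat shock proteins. The capitals mark 2 pairs GAANNTTC, with first bases at -117 and -97.
Hspb1: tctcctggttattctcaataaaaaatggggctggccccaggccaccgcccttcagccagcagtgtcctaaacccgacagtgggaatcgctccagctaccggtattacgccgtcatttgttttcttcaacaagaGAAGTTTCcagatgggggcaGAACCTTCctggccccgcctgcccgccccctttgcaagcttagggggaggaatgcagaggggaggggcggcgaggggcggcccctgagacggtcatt

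Hspb1 also differed between the organs within supporting cells. It had 10.9, 7.36, 6.70 and 9.76 CPM in the cochlea against 180, 92.2, 48.8 and 72.5 in the vestibule (log2 fold -3.52 ± 0.38, adjusted p = 9.75e-08), without overlap. Hspb2, which is found mainly in muscle, had 3 UMIs in vestibular and none in cochlear HCs, where 3 UMIs would be 3.89 CPM. It was highest in vestibular glial cells, with 71.8, 69.5 and 158 CPM in the 3 libraries that had enough of them. Hspb8, which works with Bag3, had no UMI in cochlear HCs and 51.2 ± 22.6 CPM in cochlear fibrocytes or fibroblasts. Hspb2 overlaps Cryab on the opposite strand.

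Chaperones of the endoplasmic reticulum (ER), where secreted and membrane proteins fold, differed between the organs in classes other than HCs. A class named in both organs did not pool the same clusters in each. Fibrocytes or fibroblasts, for example, had a cluster with Otos among its top genes in both organs. Other clusters of this class were led by Scn7a or Dmp1 in the cochlea and by Lum in the vestibule. The part of this make-up in the differences was not tested. Hspa5, the ER HSP70 called BiP (chromosome 2, 34771970 to 34777547), had 276, 314, 337 and 293 CPM in cochlear supporting cells and 1124, 880, 940 and 1057 in vestibular ones (log2 fold -1.69 ± 0.20, adjusted p = 3.68e-07). Hsp90b1, the ER HSP90 called GRP94 (chromosome 10, 86690209 to 86705509), had 450, 463, 614 and 542 against 1579, 1507, 1734 and 1916 (-1.69 ± 0.21, adjusted p = 6.65e-07). For both, the lowest vestibular library lay far above the highest cochlear one, and the call held in all 13 alternatives. Over all members, 11 of the 50 tested in supporting cells differed (29% of all genes), 9 of them lower in the cochlea (17.1%) and 2 higher (11.9%).

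The J-domain partners of Hspa5 had smaller folds in supporting cells. Dnajb9 had 65.4, 60.6, 40.2 and 54.6 CPM against 136, 97.8, 57.7 and 109 (-0.79 ± 0.25, adjusted p = 0.0196), with 1 vestibular library below the highest of the cochlea. Dnajc3, which restrains the stress kinase PERK, had 171, 118, 143 and 107 against 215, 192, 213 and 218 (-0.64 ± 0.20, adjusted p = 0.0161). Dnajc10, a reductase of disulfide bonds, had 76.2, 85.5, 69.2 and 95.6 against 112, 129, 113 and 176 (-0.62 ± 0.22, adjusted p = 0.0344). Dnajb11 had an adjusted p of 0.0537 (-0.70 ± 0.27), and one of 0.0113 with the replicate number as a block (-0.66 ± 0.22). Without replicate 3 the calls of Dnajb9, Dnajc3 and Dnajc10 were lost, and replicate 3 held 484 of the 823 cochlear supporting cells. Over all classes other than HCs, 28 of 258 tests of members were called (17.3% of those of all genes). These calls became 11 without replicate 3, 11 without replicate 4, 16 without replicate 5 and 40 without replicate 1. The share of all genes called is not given for these settings.

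In fibrocytes or fibroblasts 12 of 58 members differed (23.1% of all genes), 6 higher in the cochlea (11.8%) and 6 lower (11.3%). Hspa5 had 238, 286, 211 and 276 CPM in the cochlea against 459, 433, 400 and 398 in the vestibule (-0.99 ± 0.19, adjusted p = 0.000431), and Dnajb9 had 72.0, 42.7, 38.0 and 45.4 against 121, 135, 106 and 101 (-1.59 ± 0.20, adjusted p = 3.15e-06). Hsp90b1 was at 566 to 629 and 573 to 625 CPM, which overlap (-0.31 ± 0.20, adjusted p = 0.303). Higher in the cochlea were Hspa2 (2.57 ± 0.45, adjusted p = 0.00065) and Hspa1a (1.28 ± 0.35, adjusted p = 0.00944), the latter with 28.2, 18.2, 36.1 and 14.6 against 4.86, 9.78, 6.54 and 7.49 CPM. In nonsensory epithelial cells 5 of 54 differed (13.8% of all genes). Hspa2 and Dnajc13 were higher in the cochlea (6.1% of all genes were), and Hsp90b1 (-1.01 ± 0.24, adjusted p = 0.00659), Dnajb9 and Dnajc1 were lower (7.74%). No member was called in erythroid cells, macrophages or T and natural killer cells, with 40, 31 and 25 members tested and 6.57%, 0.619% and 0% of all genes called. With the replicate number as a block, Dnajb4, Dnajb2 and Dnaja4 were lower in cochlear erythroid cells (adjusted p = 0.00693, 0.0293 and 0.0409). The share of all genes called with this block is not given.

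In HCs, no ER member passed the test between the organs. Hspa5 had 338, 581, 533 and 555 CPM in the cochlea against 344, 387, 421 and 485 in the vestibule (0.36 ± 0.21, adjusted p = 0.229), and Hsp90b1 had 797, 921, 981 and 751 against 1111, 927, 1049 and 1112 (-0.25 ± 0.20, adjusted p = 0.392), both with overlap. Dnajc10 had a log2 fold of -0.62 ± 0.29 in HCs (adjusted p = 0.113), the size it had in supporting cells. The difference itself was tested as an interaction of organ and class, added after these results had been seen. Classes of an organ come from the same libraries, but this fit had no block for the library. Its p-values thus take their sums as independent. Deviations of vestibular supporting cells and HCs correlated at 0.275, 0.105, 0.200 and 0.115 in replicates 1, 3, 4 and 5. The organ effect in HCs minus that in supporting cells was 1.97 ± 0.31 for Hspa5 (adjusted p = 6.15e-06), 1.38 ± 0.28 for Hsp90b1 (adjusted p = 0.000366), 0.94 ± 0.28 for Dnajc3 (adjusted p = 0.0188), 1.52 ± 0.44 for Dnajb9 (adjusted p = 0.0124), 1.22 ± 0.39 for Dnajb11 (adjusted p = 0.0241), and -0.09 ± 0.36 for Dnajc10 (adjusted p = 0.927). Of all members 9 of 64 passed, where 15.1% of all 10074 genes did. Against fibrocytes or fibroblasts it was 1.32 ± 0.31 for Hspa5 (adjusted p = 0.00116; 20% of all genes) and 0.04 ± 0.28 for Hsp90b1 (adjusted p = 0.955). Against nonsensory epithelial cells, where 15.3% of all genes passed, Dnajb9 did (1.70 ± 0.46, adjusted p = 0.00732) and Hspa5 did not (0.76 ± 0.31, adjusted p = 0.0884).

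**Figure D5:**
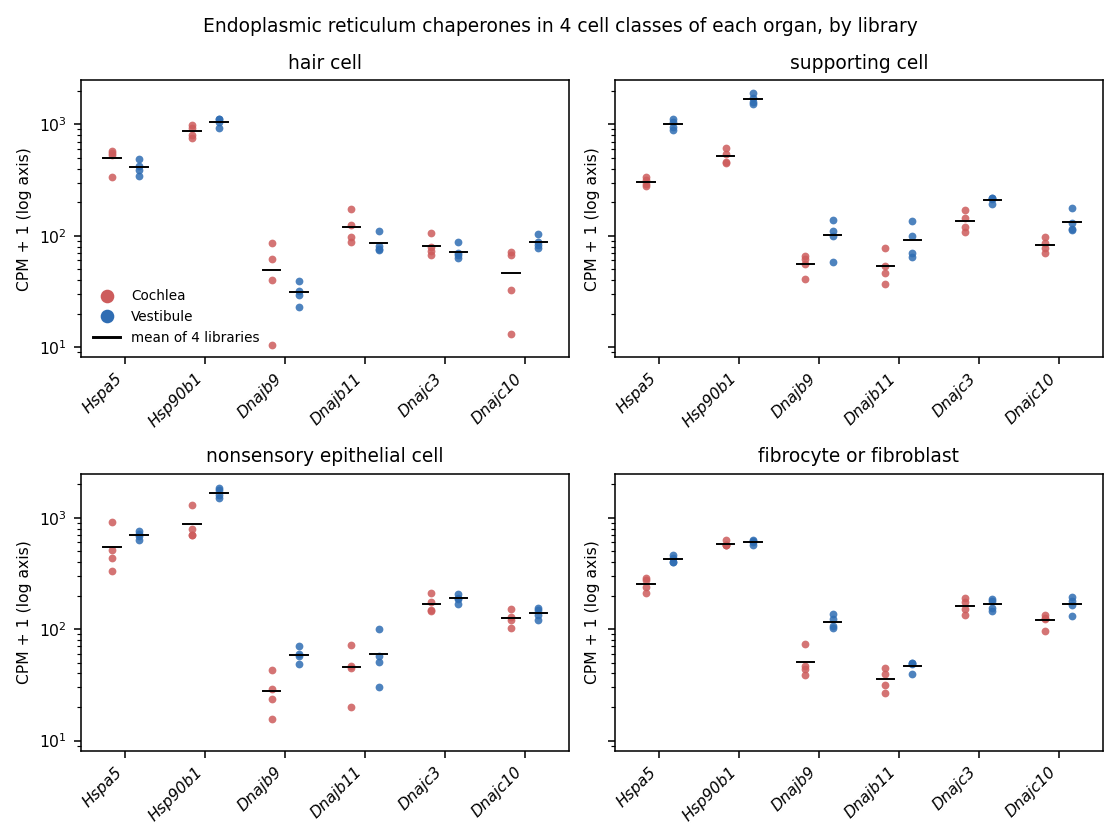
Levels of 6 ER chaperones (x axes) in HCs, supporting cells, nonsensory epithelial cells and fibrocytes or fibroblasts (panels), 1 point per library, red for the cochlea and blue for the vestibule, with the mean as a black line, on a log axis of CPM + 1. In supporting cells all 4 vestibular libraries of Hspa5 (880 to 1124 CPM) lie above all 4 cochlear ones (276 to 337 CPM), and in HCs they overlap.

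Promoters of ER chaperones are known for the ER stress element, read by ATF6. The form CCAAT, then 9 bases of any kind, then CCACG, searched on both strands, was in 3 of the 85 member promoters (3.529%) and in 0.1187% of all 32851. The 3 promoters are shown 5′ to 3′ because they belong to Hspa5, Hsp90b1 and Dnajc3, which were all lower in cochlear supporting cells; the capitals mark the element. Its first base lies at -65 in Hspa5, at -212 and -107 in Hsp90b1 and at -105 in Dnajc3, each from the RefSeq start. The stretch shown for Hspa5 lies inside a GENCODE transcript. The windows are chr2:34772020-34772049 on the plus strand for Hspa5, chr10:86705510-86705694 on the minus strand for Hsp90b1 and chr14:118937682-118937931 on the plus strand for Dnajc3, all GRCm38.p6. Dnajb9 and Dnajc10 did not hold these letters in their windows.
Hspa5: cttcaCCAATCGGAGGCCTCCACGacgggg
Hsp90b1: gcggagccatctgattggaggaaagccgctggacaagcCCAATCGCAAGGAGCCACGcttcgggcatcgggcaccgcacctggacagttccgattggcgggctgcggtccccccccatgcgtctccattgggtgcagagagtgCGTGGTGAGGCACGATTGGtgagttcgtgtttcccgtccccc
Dnajc3: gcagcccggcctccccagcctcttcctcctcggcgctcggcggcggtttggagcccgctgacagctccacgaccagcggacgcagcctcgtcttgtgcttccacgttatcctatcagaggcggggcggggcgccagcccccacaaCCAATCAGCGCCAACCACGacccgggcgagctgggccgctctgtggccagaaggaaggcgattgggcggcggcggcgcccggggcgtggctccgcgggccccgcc

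The other genes of ER folding and the unfolded protein response, a list of 18 that holds no member, were counted in the same way. In supporting cells 12 of the 16 tested were lower in the cochlea, against 17.1% of all genes (Pdia4, Calr, Xbp1 and Manf among them) and Herpud1 was higher, with a median log2 fold of -1.37. In fibrocytes or fibroblasts 12 of 18 were lower, against 11.3% of all genes, and none higher (median -0.70). In nonsensory epithelial cells 1 of 16 was lower, against 7.74% of all genes, and in HCs 2 of 16, Selenos and Hyou1, were higher in the cochlea, against 12.6% (median 0.18); both shares are near those of all genes. Early response genes, which rise when tissue is dissociated, differed in the opposite direction: of 12 such genes, 5 of 8 tested were higher and 1 lower in cochlear supporting cells (11.9% of all genes were higher) and 6 of 10 were higher in cochlear fibrocytes or fibroblasts (11.8%). Their summed level was 570, 539, 2308 and 624 CPM in cochlear supporting cells against 204, 148, 189 and 192 in vestibular ones, and 205, 222, 333 and 250 against 127, 119, 163 and 129 in HCs. The part of dissociation in the differences between the organs was not tested.

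Cct7 was the most abundant CCT subunit in vestibular HCs, with 304 ± 37.1 CPM, and had 252 ± 51.5 in cochlear HCs; Cct2 had 167 ± 16.1 and 163 ± 24.0, and Cct3 167 ± 18.7 and 132 ± 64.7. In vestibular HCs Cct7 (1.24 ± 0.14), Cct3 (1.11 ± 0.15) and Cct6a (1.10 ± 0.16) exceeded the mean of the other classes by more than 2-fold, and in cochlear HCs Cct7 did (1.00 ± 0.24). Hspd1, mitochondrial HSP60, had 213 ± 33.7 CPM in vestibular and 152 ± 17.3 in cochlear HCs, and Hspe1, its partner HSP10, had 210 ± 28.2 and 221 ± 38.5. None of the CCT subunits, Hspd1 or Hspe1 was called between the organs in HCs. Hspd1 and Hspe1 lie head to head on chromosome 1 (55077835 to 55088243 and 55088132 to 55091307), and their transcripts overlap. The window before the start of Hspe1 (chr1:55088053-55088082, plus strand, GRCm38.p6), inside a transcript of Hspd1, is shown because it falls in the promoter windows of both genes; the capitals mark overlapping pairs of both forms, with first bases at -89, -84 and -79.
Hspe1: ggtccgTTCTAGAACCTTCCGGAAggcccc

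In vestibular granulocytes 16 of 63 members were called, 14 of them lower, where 32.9% of all genes were called and 13.3% were lower, with a median log2 fold of -0.71 against -0.16 over all genes. Cct3 had 12.2, 4.48 and 9.32 CPM in the 3 libraries with enough granulocytes, Hspd1 had 21.3, 31.3 and 34.2, Hspe1 had 60.9, 31.3 and 14.0, and Hsp90b1 had 143, 94.0 and 143. Dnajc16 had no UMI in granulocytes, where 3 UMIs would be 1.94 CPM. In vestibular erythroid cells 15 were called (22.5% of all genes), 13 of them higher (14.4%), although the members' share of UMIs was low there; the folds are relative to the other genes of the class, and CPM are shares of all UMIs, hemoglobin included. Dnajc7, a J-domain protein that binds both HSP70 and HSP90, had 523, 729 and 814 CPM in the 3 vestibular libraries with enough B cells, 3.17 higher on the log2 scale than the mean of the other classes.

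In cochlear neurons the sum of all members was 12109 ± 871 CPM, against 13715 ± 1392 in cochlear HCs, and the sum of CCT was 1269 against 1261. Of 59 members, 15 were called in neurons (40.3% of all genes), 12 of them higher (22.3%). Hspa12a, Dnajc6 and Dnajc15, the last a protein of the inner mitochondrial membrane, were higher there by 5.62, 3.85 and 1.71 on the log2 scale, and Hspa2 had a log2 fold of -2.44. Of the cochaperones and heat shock factors, a list of 22 genes without members, 3 of 19 tested were higher (Bag1, Cryab and St13) and Bag2 was lower in cochlear than in vestibular HCs, where 12.6% of all genes were higher and 18.3% lower. None of the 9 tested genes of mitochondrial folding and none of the 6 prefoldin genes, which hand actin and tubulin to CCT, was called in that comparison.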

How the data were processed

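Per the labels, UMIs were counted per gene and barcode with Cell Ranger on mm10, and the deposited counts were used as they are; the file headers give version 5.0.1 in replicates 1 and 2 of each organ and 6.1.2 in the rest. Barcodes were kept from 1000 UMIs and 200 genes upwards and below 25% mitochondrial UMIs, and clustered for each organ in Seurat 5.3.0 with 2000 variable genes (members removed), 30 components, resolution 1 and no integration. A cluster took a class name from at least 3 enriched markers. No doublet caller was run; 69 cochlear and 230 vestibular cells of clusters with markers of HCs and of another class were set aside. UMIs summed over at least 10 cells per library and class were tested in edgeR 4.0.16 (R 4.3.3; TMM, filterByExpr, robust quasi-likelihood F test), adjusted by Benjamini-Hochberg over all genes, with DESeq2 1.42.0 as an alternative. The fits were tested on simulated data. The types of vestibular HCs come from the same library (correlation of deviations 0.18 to 0.26), whereas samples of different organs were not taken as pairs, since the correlation was not above 0.1 in every number (0.032 to 0.108 in HCs, 0.080 to 0.310 in supporting cells). In supporting cells it was 0.310, 0.190, 0.240 and 0.080 in replicates 1, 3, 4 and 5. A fit with the replicate number as a block was run as an alternative. Genes with values were the most abundant of each family, those the study names and those with the largest changes, and other named genes were chosen after their values were seen. The members and lists were chosen with earlier results of these data known.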

Additional observations from a re-analysis of the deposited data

Results flagged for a closer look

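The search covered 142 groups of 4 libraries (15 members and the sum of all members, in the main classes). In 15 of them, or 10.6%, 1 library lay far from the other 3. Chance alone gives about 1 in 20 for independent values with a normal spread. Here HC types lie within HCs and members within their sum, so 10.6% cannot be set against that rate. In cochlear nonsensory epithelial cells replicate 1 stood high for Hsp90aa1 (1844 CPM, the others 325 to 461), Hsp90b1 (1288), Hsph1 (260), Dnaja4 (197) and the sum of all members (12075 CPM, the others 7241 to 7569). In the same library and class the summed markers of outer HCs were 352 CPM against 49.2 to 81.9 in the others; their part in these values was not tested. Replicate 1 also stood high for the sum of all members in the fibrocytes or fibroblasts of the cochlea (7134 CPM) and of the vestibule (6038 CPM), for Hspa2 in cochlear fibrocytes or fibroblasts (131 CPM, the others 29.3 to 43.9) and in type I HCs (47.9 CPM), and for Dnajc6 in type I HCs (17 CPM). Replicate 4 stood apart in cochlear supporting cells, low for Dnajc6 (6.70 CPM) and high for the sum (7329 CPM), and high for the sum in vestibular melanocytes or intermediate cells (8460 CPM). Hsph1 was low in the cochlear HCs of replicate 3 (189 CPM), and Hsp90b1 high in the cochlear fibrocytes or fibroblasts of replicate 5 (629 CPM).

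The effect of the organ differed between HCs and another class in 18 of 45 tests of the difference. These were run in edgeR without a block for the library and adjusted over all genes. They covered 15 members that were chosen with earlier results of these data known. Over all 64 members tested, 9 passed against supporting cells (15.1% of all genes), 6 against nonsensory epithelial cells (15.3%) and 8 against fibrocytes or fibroblasts (20%), so that the members' share was below that of all genes in each. Against supporting cells, the log2 difference was 1.97 for Hspa5, 1.38 for Hsp90b1, 1.52 for Dnajb9, 0.94 for Dnajc3, 3.12 for Hspa2, 2.91 for Dnajc6, 3.90 for Dnajc5b and -2.37 for Dnaja4. Against nonsensory epithelial cells it was 6.43 for Dnajc5b, 2.06 for Hspa2, 1.70 for Dnajb9, -1.58 for Hsph1 and -2.62 for Dnaja4. Against fibrocytes or fibroblasts it was 1.32 for Hspa5, 2.37 for Dnajb9, 3.45 for Dnajc6, -1.47 for Hsp90ab1 and -3.42 for Hspa12a. The values of Dnajc5b rest on cochlear HCs in which the share of inner HCs varies between libraries and on classes with few UMIs of the gene.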

How the results depend on the processing

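Each count of called members was recomputed under 13 alternatives. The share of all genes called is given for the main fits, and with the block only for the HC types. Fewer UMIs or libraries can lower the calls of any gene, so these counts are no result about the members. With each cell thinned to 1000 UMIs, the cochlear class calls fell from 70 to 31, the calls between the organs in classes other than HCs from 28 to 10, and those between type I and type II HCs from 5 to 2. A limit of 10% on mitochondrial UMIs gave 39 cochlear class calls and turned the log2 fold of Dnajc5 in HCs to -0.11. The replicate block gave 11 calls between the HC types. No other count changed by more than 1.5 times, but that between the organs in classes other than HCs rose from 28. Dnajb11, Hsp90aa1 and Hspd1 in supporting cells and Dnajb4, Dnajb2 and Dnaja4 in erythroid cells were among those added. Leaving out 1 replicate number at a time gave 106 to 119 vestibular class calls (114 with all), 51 to 83 cochlear ones, 7 to 13 between the organs in HCs (9 with all), 11 to 40 in other classes and 2 to 5 between the HC types. Called in every alternative were 64 of 114 vestibular and 31 of 70 cochlear class calls, 5 of 9 between the organs in HCs, 7 of 28 in other classes and 2 of 5 between the types. Tests of the difference between organ effects were run in 1 setting, without a block for the library. Cochlear HCs numbered 14 to 81 per library, which limits the precision of their levels.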
